A study of Mus musculus with 16 samples.

Results

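The genes described here are 8 members of the hormone axis between pituitary and gonad: the receptors of luteinising hormone (Lhcgr) and follicle-stimulating hormone (Fshr), anti-Müllerian hormone (Amh) and its receptor (Amhr2), the 3 subunits of inhibins and activins (Inha, Inhba, Inhbb) and follistatin (Fst). They were taken by symbol from a table of 38087 genes, and each symbol matched 1 gene. Their RNA was followed in whole ovaries and whole testes of mice with and without a microbiota.

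Luteinising hormone acts on theca, luteal and preovulatory granulosa cells of the ovary and on Leydig cells of the testis, and follicle-stimulating hormone on granulosa and Sertoli cells, both through receptors that raise cyclic AMP. Inhibins are dimers of the alpha subunit with a beta A or beta B subunit and lower the pituitary output of follicle-stimulating hormone, whereas activins, dimers of beta subunits alone, raise it. Follistatin binds and blocks activins, and anti-Müllerian hormone, a product of granulosa and Sertoli cells, acts through its own type 2 receptor and the type 1 receptors and SMAD proteins of bone morphogenetic proteins.

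Total RNA was measured in 4 ovaries of conventionally raised females (CV), 5 ovaries of germ-free females (GF), 4 testes of CV males and 3 testes of GF males. All mice were labelled C57BL/6j and aged 15 to 16 weeks, fed ad libitum and collected between zeitgeber times 2 and 4, that is 2 to 4 hours after lights on. Germ-free mice are raised without microbes. Tissue and sex were a single factor, and no label gives an oestrous stage, a cage or a litter. The testis samples are labelled male, although the title of the series speaks of female mice. No label states whether each library of a group stands for its own animal, and p-values therefore reflect only how far these samples spread, in part perhaps technically.

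Total counts ran from 12912251 to 15907297 per ovary and from 25880591 to 28266867 per testis. Levels are given as CPM, counts per 1000000 counts, on a single scale for all 16 libraries, and as CPM per kilobase of merged exon wherever different genes are compared. The tissue labels fitted the defining markers: the granulosa cell gene Foxl2 ran from 17.1 to 24.8 CPM in ovaries and from 0 to 0.159 CPM in testes, and the spermatid gene Prm1 from 3755 to 4229.8 CPM in testes and up to 0.395 CPM in ovaries. The ovaries also held the oviduct secretory gene Ovgp1 at 1361 to 2905 CPM, and the part of oviduct tissue in the results was not tested. The ovaries labelled GF4 and GF5 stood apart from the other ovaries in some cell type markers. Ptgfr, the prostaglandin receptor of the corpus luteum, stood at 9.13 CPM in GF4 and 21.1 in GF5 against 50.2 to 273 elsewhere, and the theca enzyme gene Cyp17a1 at 926 and 12.7 CPM against 133 to 335. Of the other luteal markers Sfrp4 (25.8 and 34 CPM) and Akr1c18 (0.116 and 1.87) were also lowest in GF4 and GF5. Prlr (457 and 380 CPM against 410 to 831) and Parm1 (18.1 and 25 against 17.8 to 35.6) did not set GF4 and GF5 together apart. Log2 fold changes between GF and CV ovaries that rest on these libraries are given with and without them. Spreads, profile distances, shares and ranges of ratios are given with all ovaries included.

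Among the 8 genes the ovary and the testis were ordered differently. Per kilobase of exon, Inha led in the CV ovary at 609 ± 142 CPM per kb (SD, n = 4), followed by Inhbb at 60.9 ± 4.2. Lhcgr (33.9), Amhr2 (23.7), Inhba (23), Fst (22.6) and Amh (17.7) followed with ranges that overlapped between neighbours in this order, and Fshr was the lowest at 9.75 CPM per kb. In the CV testis Amhr2 led at 85.1 ± 1.91 CPM per kb (n = 4), above Inha (40.9 ± 1.95) and Inhbb (6.92 ± 0.442). Fshr (1.25), Lhcgr (0.913) and Amh (0.787) came next with overlapping ranges, then Fst at 0.224 and Inhba at 0.0403. The GF groups gave the same first pair in each tissue. In GF ovaries the ranges of all neighbours from Inhbb downward overlapped, and Amhr2 (27.8) then stood above Lhcgr (25.1).

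**Figure D1:**
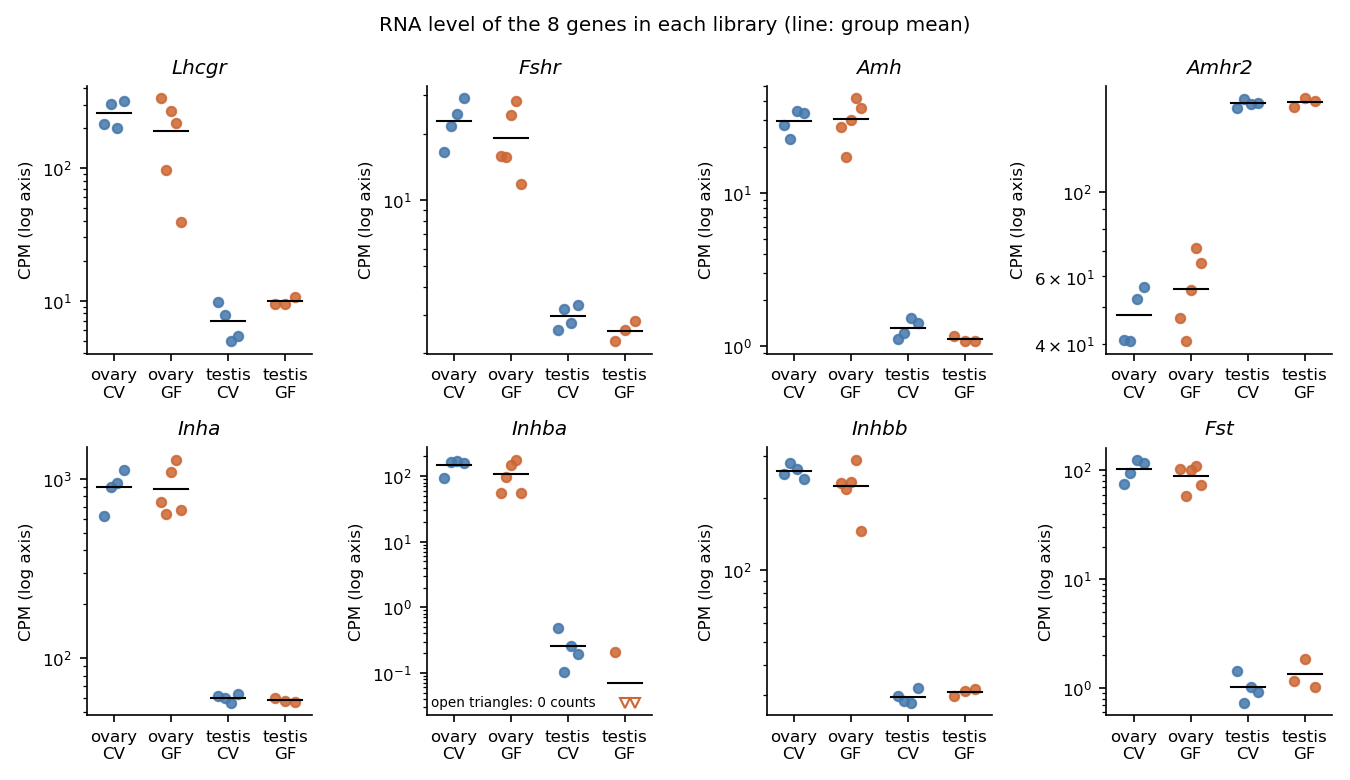
CPM of the 8 genes in each library (points; 4 CV and 5 GF ovaries, 4 CV and 3 GF testes), on log axes that differ between panels, with the group mean as a line and testes without an Inhba count as open triangles. Amhr2 is the member with all testes above all ovaries, the other 7 have all ovaries above all testes, and within a tissue the CV and GF points overlap in every panel.

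Of the 8 genes 1 was higher and 7 were lower in the testis than in the ovary, in CV and in GF mice alike. Amhr2 was 3.59-fold higher in the CV testis and 3.09-fold higher in the GF testis, while the other 7 ran from Fshr, at 0.128 of the ovary level in CV mice, to Inhba, the beta A subunit, which was close to absent. All 8 were called in both contrasts by edgeR's quasi-likelihood test at an adjusted p under 0.05, where called means past that threshold. Most genes were called as well, 91.2% of 21231 genes in CV and 89.2% of 21221 in GF mice, with 47.4% and 45.7% of genes higher in the testis and 43.8% and 43.4% lower. The groups did not overlap for any of the 8, against 89.1% and 87.8% of all genes. In bulk tissue a smaller share of cells that make an RNA and less of it per cell cannot be told apart, and the testis is made up mostly of germ cells.

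Lhcgr (ENSMUSG00000024107) lies on the minus strand of chromosome 17 at 88716481 to 88791990 in GRCm38, with 13 merged exon blocks of 7645 bp in all. It encodes the receptor of luteinising hormone. Its level was 214, 303, 201 and 318 CPM in the CV ovaries and 336, 96.5, 268, 217 and 39 CPM in the GF ovaries. The testes held 9.76, 7.8, 4.93 and 5.42 CPM in CV and 9.45, 9.49 and 10.7 CPM in GF mice. Ovaries were thus far above testes throughout, the GF ovaries spanned more than the whole CV range on both sides, and 2 of 5 GF ovaries lay below every CV ovary. Testis against ovary gave a log2 fold change of -5.22 in CV (SE 0.283, adjusted p = 7.85e-07, edgeR) and -4.27 in GF mice (SE 0.807, adjusted p = 0.00152).

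Fshr (ENSMUSG00000032937) lies on the same strand of chromosome 17 at 88984952 to 89200675, in 10 exon blocks of 2360 bp. The receptor of follicle-stimulating hormone was measured at 16.5, 21.7, 24.7 and 29.1 CPM in CV ovaries and at 15.9, 15.7, 24.3, 28.3 and 11.8 CPM in GF ovaries. In testes it stood at 2.55, 3.2, 2.74 and 3.32 CPM in CV and 2.27, 2.56 and 2.8 CPM in GF mice, which rests on 43 to 68 counts a library. The CV and GF ranges overlapped in both tissues. The tissue difference was -2.96 on the log2 scale in CV (SE 0.177, adjusted p = 4.09e-09) and -2.91 in GF mice (SE 0.313, adjusted p = 8.16e-06, edgeR).

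Amh (ENSMUSG00000035262) is on the plus strand of chromosome 10 at 80805243 to 80807648, in 5 exon blocks of 1670 bp. The hormone is made by granulosa cells of growing follicles and, before puberty, in quantity by Sertoli cells. CV ovaries held 27.8, 22.6, 34.3 and 33.4 CPM and GF ovaries 26.9, 17.2, 30, 41.7 and 35.8 CPM, so that the GF range enclosed the CV range. All 7 testes held between 1.07 and 1.52 CPM, on 21 to 30 counts a library. Testis against ovary gave -4.48 in CV (SE 0.17, adjusted p = 1.78e-11) and -4.77 in GF mice (SE 0.332, adjusted p = 2.95e-07, edgeR).

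Amhr2 (ENSMUSG00000023047), the receptor that binds anti-Müllerian hormone, lies on the plus strand of chromosome 15 at 102445367 to 102454633, in 11 exon blocks of 2005 bp. Ovaries held 40.9, 40.6, 52.4 and 56.2 CPM in CV and 46.6, 40.5, 55.3, 71.3 and 65.1 CPM in GF mice. Testes held 166, 175, 170 and 172 CPM in CV and 168, 176 and 173 CPM in GF mice. Every testis was thus more than 2 times as high as every ovary, and the 7 testes lay close together. The log2 difference was 1.84 in CV (SE 0.102, adjusted p = 9.06e-09) and 1.63 in GF mice (SE 0.161, adjusted p = 4.87e-06, edgeR). Scaled by library totals alone it was 1.04 and 0.84, still called. That scaling moved the median of all genes from 0.11 to -0.69 for CV mice and from 0.04 to -0.75 for GF mice, and the share of calls that were higher in the testis from 52% to 39.5% and from 51.3% to 38.5%.

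Because Amhr2 alone among the 8 was higher in the testis, the 250 bases before its RefSeq start are shown with those of Fshr, a receptor that went the other way. RefSeq promoter windows (GRCm38.p6) matched 6 of the 8 genes, all but Amh and Fst. Capitals mark matches to the SF-1 type motif CAAGGNC in Amhr2 (GNCCTTG on the opposite strand) and to the E-box CACGTG, its own reverse, in Fshr. Amhr2 lies at chr15:102445117-102445366 on the plus strand and Fshr at chr17:89200676-89200925 on the minus strand, both written 5′ to 3′.
Amhr2: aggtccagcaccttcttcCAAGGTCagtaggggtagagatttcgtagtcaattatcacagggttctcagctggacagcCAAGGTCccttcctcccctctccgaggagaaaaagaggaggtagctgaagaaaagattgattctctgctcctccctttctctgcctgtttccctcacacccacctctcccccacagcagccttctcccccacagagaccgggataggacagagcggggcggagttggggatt
Fshr: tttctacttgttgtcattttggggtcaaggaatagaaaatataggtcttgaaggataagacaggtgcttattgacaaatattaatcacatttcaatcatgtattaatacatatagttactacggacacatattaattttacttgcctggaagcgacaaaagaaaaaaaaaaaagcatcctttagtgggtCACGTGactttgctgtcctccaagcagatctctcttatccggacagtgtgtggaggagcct
The SF-1 type motif, named for the gonadal nuclear receptor encoded by Nr5a1, occurred at 2 places in the Amhr2 window, starting 232 and 172 bases before the start. It had no match in the windows of the other 5 genes, against at least 1 match in 15% of 32851 windows of the same length. The E-box started 61 bases before the Fshr start and was in 6.02% of all windows. The cyclic AMP response element TGACGTCA (1.55% of windows) and the GATA type motif AGATAA (9.99%; TTATCT on the opposite strand) had no match in the 6 windows. The Inha window, chr1:75507359-75507608, lay inside the Inha gene as annotated here, which starts at 75507077. Its lack of matches therefore does not describe the sequence before that start. The motifs share no bases with each other in these windows, and a match is a description of letters, not of binding. Nr5a1 itself ran from 155 to 183 CPM in CV ovaries and from 34.8 to 41.2 CPM in CV testes.

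Inha (ENSMUSG00000032968), the alpha subunit found in inhibins and not in activins, is on the plus strand of chromosome 1 at 75507077 to 75510366, in 2 exon blocks of 1475 bp. Ovaries held 620.5, 903, 946 and 1125 CPM in CV and 749, 635, 1089, 1282 and 669.8 CPM in GF mice. Testes held 61.6, 60, 56.4 and 63.1 CPM in CV and 59.7, 57.5 and 57.4 CPM in GF mice. CV1 was the lowest and GF4 the highest of the 9 ovaries, the groups overlapped, and the 7 testes were close together. The tissue difference was -3.90 in CV (SE 0.184, adjusted p = 1.19e-07) and -3.93 in GF mice (SE 0.285, adjusted p = 1.10e-06, edgeR).

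Inhba (ENSMUSG00000041324), the beta A subunit, lies on the plus strand of chromosome 13 at 16011851 to 16031621, in 5 exon blocks of 6390 bp. CV ovaries held 95.4, 166, 171 and 157 CPM and GF ovaries 55.5, 96.5, 150, 179 and 54.6 CPM, so that 2 of the 5 GF ovaries fell below the CV range and 1 above it. In testes the gene had 9, 2, 5 and 4 counts in CV and 4, 0 and 0 counts in GF mice. Over the groups, CV ovaries were 570.4-fold above CV testes (95% counting interval 369 to 934) and GF ovaries 1534-fold above GF testes (599 to 5631) on the scale of the CPM values, and these intervals cover counting error only. Testis against ovary gave -9.13 in CV (SE 0.356, adjusted p = 3.57e-08) and -10.48 in GF mice (SE 1.004, adjusted p = 1.97e-05, edgeR). The annotation places an antisense gene, Gm48444, and a pseudogene, B230303A05Rik, across Inhba with no shared exon base.

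Inhbb (ENSMUSG00000037035), the beta B subunit, is on the minus strand of chromosome 1 at 119415465 to 119422248, in 2 exon blocks of 4255 bp. Its ovary levels were 251, 281, 265 and 239 CPM in CV and 232, 217, 234, 290 and 146 CPM in GF mice. Its testis levels were 29.7, 28.2, 27.9 and 32 CPM in CV and 29.8, 31.1 and 31.9 CPM in GF mice. GF5 was the single ovary far from the rest, and in testes the groups overlapped. Testis against ovary gave -3.14 in CV (SE 0.0625, adjusted p = 2.34e-14) and -2.85 in GF mice (SE 0.204, adjusted p = 5.35e-07, edgeR).

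Fst (ENSMUSG00000021765) is on the minus strand of chromosome 13 at 114452290 to 114458951, in 3 exon blocks of 4589 bp, of which 115 bp (2.51%) lie under the antisense gene Gm47040. Follistatin RNA stood at 75.8, 94.7, 125 and 118 CPM in CV ovaries and at 103, 58.6, 101, 110 and 73.5 CPM in GF ovaries. The 4 CV testes held 0.733 to 1.43 CPM and the 3 GF testes 1.02 to 1.87 CPM, on 14 to 38 counts a library. GF2 was the lowest ovary, and neither tissue separated CV from GF. Testis against ovary gave -6.65 in CV (SE 0.243, adjusted p = 4.61e-09) and -6.03 in GF mice (SE 0.322, adjusted p = 6.59e-08, edgeR).

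In the ovary none of the 8 genes differed between germ-free and conventional mice beyond the spread between libraries. The 8 log2 fold changes (GF over CV) ran from -0.46 for Inhba to 0.23 for Amhr2, 6 of them negative, with a median of -0.21 against 0.01 over all genes tested. By edgeR 0 of 8 were called and 0 had an unadjusted p under 0.05, against 0.177% of 18095 genes called and 6.48% at that unadjusted p. DESeq2 and limma-voom called 0 as well. In no case did the CV and GF ranges fail to overlap, which 2.76% of all genes did. Within the 4 same-numbered pairs Fshr was lower in GF in all 4 and the other 7 genes were mixed. Over all genes 9.64% were lower in GF in every pair and 8.69% higher.

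Lhcgr had the widest uncertainty, with a log2 fold change of -0.44 (SE 0.564, adjusted p = 0.926, edgeR). Its value was -0.17 without GF5 and -0.15 without GF4 and GF5 together. Fshr stood at -0.26 (SE 0.265, adjusted p = 0.902). Amh stood at 0.04 (SE 0.235, adjusted p = 0.987) and turned to -0.10 without GF4, -0.03 without GF5 and -0.07 without CV2, so its sign was not settled. Amhr2 stood at 0.23 (SE 0.176, adjusted p = 0.874), ran from 0.13 to 0.32 when single libraries were left out, and was 0.00 without GF4 and GF5. Among the inhibin subunits Inha was level at -0.02 (SE 0.252, adjusted p = 0.991), its sign changing with the library left out. Inhba stood at -0.46 (SE 0.397, adjusted p = 0.892), with -0.73 without GF4 and -0.29 without GF5. Inhbb stood at -0.21 (SE 0.162, adjusted p = 0.874) and -0.09 without GF5. Fst stood at -0.22 (SE 0.213, adjusted p = 0.901). Without GF4 and GF5 together Fshr stood at -0.30, Inha at -0.12, Inhba at -0.55 and Fst at -0.24. Inhbb then stood at -0.18 (SE 0.066, adjusted p = 0.822, edgeR) and was the 1 gene of the 8 with an unadjusted p under 0.05, and 0 of 8 were called. With replicate number as a block, which pairs the ovaries and leaves out GF5, 0 of 8 were called while the calls over all genes rose from 32 to 91.

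**Figure D2:**
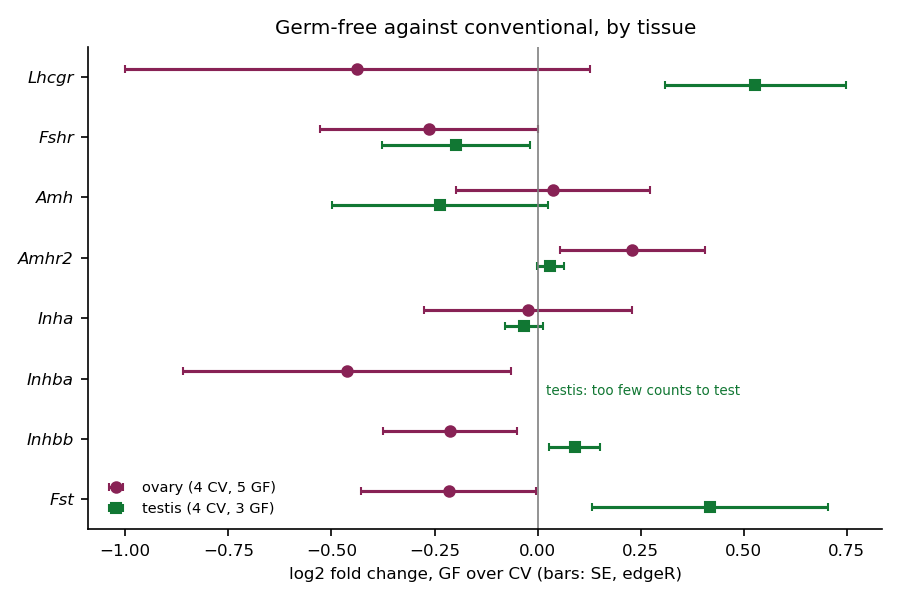
Log2 fold change of GF over CV for each gene in the ovary (circles; 4 CV, 5 GF) and the testis (squares; 4 CV, 3 GF), with bars of 1 SE from edgeR. The bars are short for Amhr2, Inha and Inhbb in the testis and longest for Lhcgr in the ovary, and no gene passed the adjusted threshold in either tissue.

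The ovaries differed more among themselves than by microbiota, and most of all in Lhcgr and Inhba. Over the 9 ovaries Lhcgr had an SD of log2 CPM of 1.01, larger than that of 98.0% of the 18095 genes tested, and Inhba one of 0.684 (94.2%). The other 6 lay between 0.293 for Inhbb and 0.448 for Fshr, against a median of 0.194 over all genes. GF5 was the lowest ovary for Lhcgr, Fshr, Inhba and Inhbb, at -2.28, -0.76, -1.07 and -0.69 from the mean log2 CPM of the 9 ovaries, whereas its Amh (0.30) and Amhr2 (0.35) lay above the mean. GF4 was the highest ovary for Amh, Amhr2, Inha, Inhba and Inhbb, at 0.30 to 0.64 above the mean. GF2 was the lowest for Amh (-0.76) and Fst (-0.67) and level with CV2 for Amhr2 (-0.33 in both).

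Cell type markers moved with these libraries, and their part in the levels was not tested. Over the granulosa list (6 of 6 markers tested) the summed level ran from 1097 to 1487 CPM in CV and from 876.5 to 1533.5 CPM in GF ovaries, with GF2 the lowest and GF4 the highest. Cyp19a1, the oestrogen-forming aromatase of granulosa cells, stood at 115 CPM in GF4, 18.6 in GF1 and 18.8 in GF5 against 35.1 to 97.4 in the other 6, and GF1 and GF5 were also the lowest ovaries for Inhba, at 55.5 and 54.6 CPM. Over the theca list (5 of 5) the sum was 1030.5 CPM in GF4 and 106 CPM in GF5, against 222 to 401 in the others. The difference lay mostly in Cyp17a1, at 926 and 12.7 CPM. In GF5 Ptch1 (76 CPM), Gli1 (12.5) and Insl3 (3.34) lay within the range of the other ovaries and Hsd3b6 (1.17) above it. In GF4 Ptch1 (82 CPM) and Insl3 (10.4) were the highest. Over the corpus luteum list (5 of 5) the sum was 510 CPM in GF4 and 462 in GF5, against 707 to 1684.5. Akr1c18, the luteal progesterone-degrading enzyme, reached 382 CPM in GF2 against 0.116 to 38.2 in the rest. The oocyte list summed to 88.6 to 156 CPM in CV and 84.4 to 143 in GF ovaries, and the oviduct list (4 of 4) to 2157 to 2758 and 1476 to 3020 CPM, with GF5 the lowest.

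**Figure D3:**
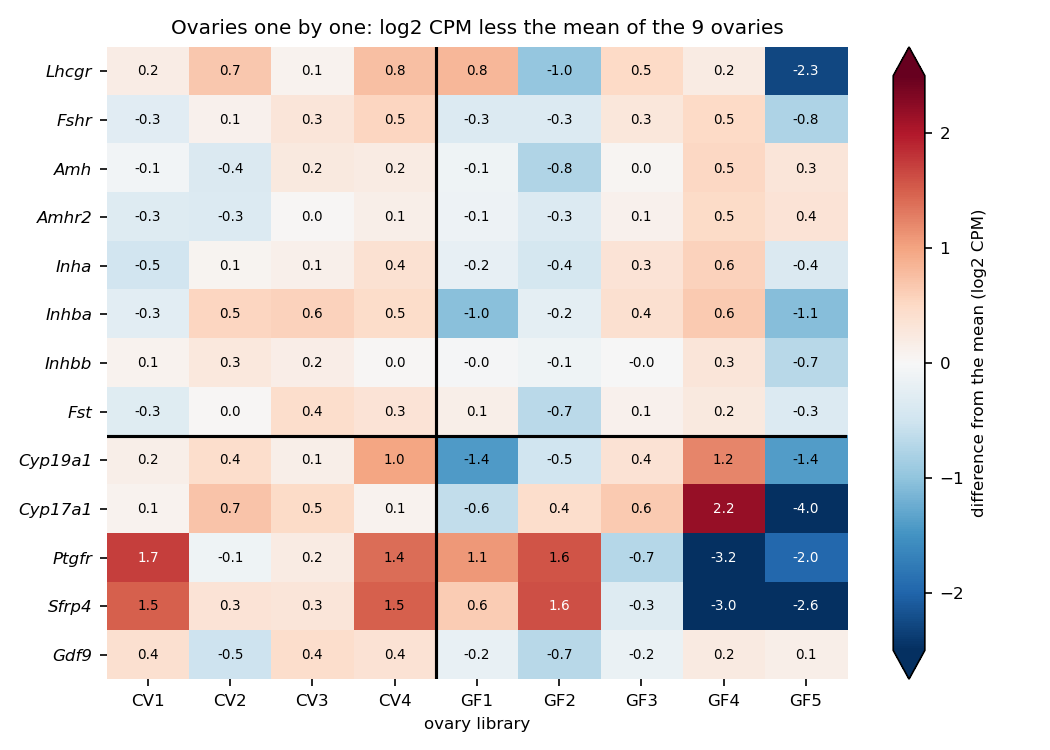
Difference of log2 CPM from the mean of the 9 ovaries for the 8 genes (upper block) and 5 markers of granulosa (Cyp19a1), theca (Cyp17a1), luteal (Ptgfr, Sfrp4) and oocyte (Gdf9) cells (lower block), 1 column per library with CV left of the line and GF right. GF5 is the darkest blue for Lhcgr at -2.28 and for Cyp17a1, and GF4 is red for all 8 genes and for Cyp17a1 and blue for the luteal markers.

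Pairs of the 8 genes could be ranked by how closely their profiles over the 9 ovaries ran, as the root mean square difference of centred log2 CPM. Fshr and Inha were the closest pair at 0.178, and Amh and Amhr2 came next at 0.183. Lhcgr and Amhr2 were the farthest apart at 1.06. All 28 pairs share libraries, depth and cell make-up, so the values describe these ovaries. Among 14348 named genes, the 2 nearest profiles were Apoa4 (0.0516) and Tmtc2 (0.0651) for Amhr2 and Plod2 (0.104) and Aldh1a1 (0.11) for Inha. Those of Amh were Alpk3 (0.109) and Sec31b (0.131), and those of Fshr were Zbtb8b (0.129) and Ptprt (0.141). Inhbb lay nearest Nudt11 (0.109) and Ankrd6 (0.114), Fst nearest Fam186b (0.118) and Tom1l1 (0.128), and Inhba nearest Jph4 (0.179) and Ncrna00086 (0.24). Lhcgr had no close profile, with Wfdc18 at 0.462 and Atp13a5 at 0.484 against its own root mean square deviation of 0.954.

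In the testis none of the 8 was called between GF and CV, and 6 of them varied less between libraries than in the ovary. Of the 7 that had enough counts to test, 4 had a positive and 3 a negative log2 fold change, with a median of 0.03 against 0.00 over all genes. By edgeR 0 of 7 were called against 8.08% of 20269 genes, and 1 had an unadjusted p under 0.05 against 19.4%. None had ranges that failed to overlap, against 17.4% of all genes. Amhr2 was among the steadiest genes of the tissue, with an SD of log2 CPM over the 7 testes of 0.0321, above that of 3.12% of genes tested, and Inha had 0.0591 (18.1%) against a median of 0.124. The 2 that varied more than in the ovary were Inhba, with an SD of 1.72 on 0 to 9 counts a library, and Fst, with 0.43 against 0.362 in ovaries.

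Lhcgr was the member with the unadjusted p under 0.05. Its mean was 6.98 ± 2.24 CPM in CV (SD, n = 4) and 9.89 ± 0.734 CPM in GF testes (n = 3). The log2 fold change was 0.53 (SE 0.22, adjusted p = 0.239, edgeR). CV1, at 9.76 CPM, lay within the GF range and the other 3 CV testes below it. Without CV1 the log2 fold change was 0.73 and the gene was called (adjusted p = 0.000586), and without a filter on low counts it was 0.52 and called (adjusted p = 0.000188). It was not called in the other 12 of 14 alternatives, where the adjusted p ran from 0.117 to 1. Its SD of log2 CPM of 0.443 was larger than that of 92.1% of genes.

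Leydig cell markers moved with Lhcgr in part. Over the Leydig list (5 of 5) the summed level was 1277, 1232, 904 and 1166 CPM in CV and 1162 to 1183 CPM in GF testes. CV3, the lowest testis for Lhcgr, was also the lowest for the side-chain cleavage enzyme gene Cyp11a1 at 62.5 CPM (114 to 146 elsewhere) and for Cyp17a1 at 164 CPM (304 to 382), and CV1 was the highest CV testis for Lhcgr, Cyp11a1 and Cyp17a1. CV4, with Lhcgr at 5.42 CPM, had Cyp11a1 at 114 and Cyp17a1 at 304 CPM. Hsd17b3 was also lowest in CV3 (17.8 CPM). Insl3 was lowest in GF1 (569 CPM, against 572 in CV3) and Hsd3b6 in GF3 (83.8 CPM, against 88.3 in CV3). Among CV testes Hsd3b6 was highest in CV1 (113 CPM), but Insl3 (640 CPM) and Hsd17b3 (24.6 CPM) were highest in CV2. Of the 5 Leydig genes 3 were positive and 2 negative between GF and CV, with a median of 0.01 and 0 called. Without CV3 the log2 fold change of Lhcgr was 0.39 (adjusted p = 0.182, edgeR).

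**Figure D4:**
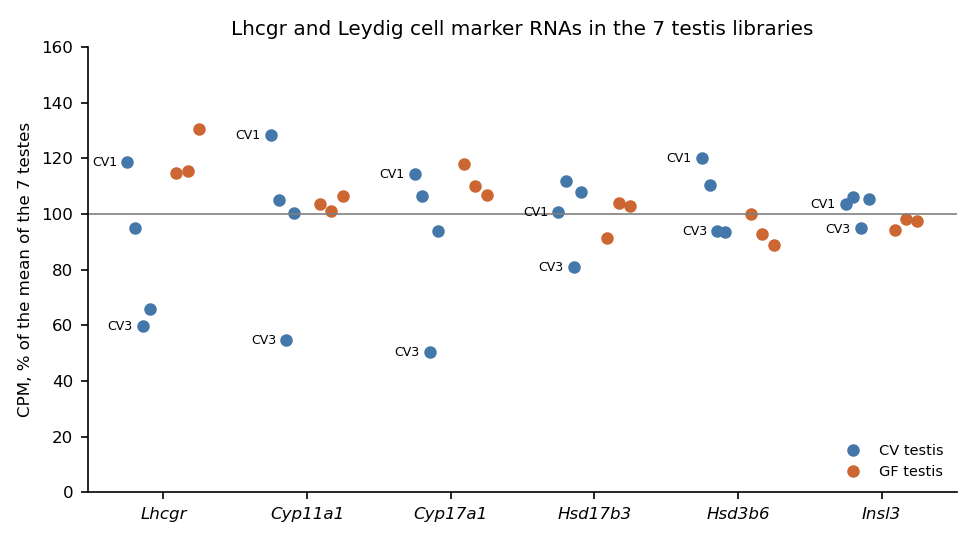
CPM of Lhcgr and 5 Leydig cell markers in each testis as a percentage of the mean of the 7 testes (4 CV, 3 GF). CV3 is low for Lhcgr, Cyp11a1 and Cyp17a1. The 3 GF testes lie above 100% for Lhcgr, Cyp11a1 and Cyp17a1, on both sides of it for Hsd17b3 and Hsd3b6, and below it for Insl3.

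The other members of the testis set gave small values. Fshr had a log2 fold change of -0.20 (adjusted p = 0.615), Amh of -0.24 (0.696) and Fst of 0.42 (0.467), on 14 to 68 counts a library. Amhr2 (0.03, SE 0.0336, adjusted p = 0.684), Inha (-0.03, SE 0.047, adjusted p = 0.778) and Inhbb (0.09, SE 0.0617, adjusted p = 0.471) had narrow errors, all by edgeR. Inhba was not tested, since the filter on low counts removed it: 20 counts over the 4 CV testes against 4 over the 3 GF testes gave a ratio of 3.77 on the CPM scale (95% counting interval 1.26 to 15.2), and without the filter edgeR gave -1.81 (adjusted p = 0.284). Sertoli cell markers, of the cell type that carries Fshr and makes Amh and inhibin in the testis, summed to 303 to 311.5 CPM in CV and 287 to 302 CPM in GF testes, with 0 of 6 called.

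The response to microbiota was not shown to differ between the tissues for any of the 8. The interaction, the GF minus CV difference of the testis minus that of the ovary, ran from -1.36 for Inhba (SE 2.23) to 0.94 for Lhcgr (SE 0.795, adjusted p = 0.866, edgeR), with 0 of 8 called and 0 at an unadjusted p under 0.05, against 0.132% and 6.93% of 21977 genes. Lhcgr had opposite signs in the tissues, -0.44 and 0.53, and so did Fst, -0.22 and 0.42 (interaction 0.62, SE 0.49, adjusted p = 0.865).

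The balance between subunits, binding protein and receptors within a library needs no scaling and is given per kilobase. Inha made up 87.6% ± 2.24 of the summed inhibin subunit RNA in CV ovaries (SD, n = 4), 89.5% ± 1.8 in GF ovaries (n = 5), 85.4% ± 0.396 in CV testes and 84.4% ± 0.703 in GF testes. Inhbb made up 9.13% ± 2.19 in CV ovaries against 14.5% ± 0.393 in CV testes, and Inhba 3.32% ± 0.412 against 0.0843% ± 0.0509. The alpha share lay between 83.8% and 91.4% in all 16 libraries, while the beta subunit RNA of the testis was nearly all Inhbb. In GF ovaries Inhba made up 2.41% ± 0.726, and the ranges of 2.91% to 3.69% in CV and 1.52% to 3.04% in GF overlapped.

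The ratio of Inha to the summed beta subunits ran from 5.68 to 9.44 in CV and 6.51 to 10.6 in GF ovaries, and from 5.67 to 6.11 and 5.19 to 5.75 in CV and GF testes. That of the beta subunits to Fst, the activin blocker, ran from 3.14 to 4.48 and 2.67 to 5.19 in ovaries and from 22.6 to 41.6 and 18 to 33.8 in testes. Every testis thus held less follistatin RNA per activin subunit RNA than every ovary. Lhcgr over Fshr lay between 2.52 and 4.31 in CV and between 1.02 and 6.52 in GF ovaries, GF1 being the highest and GF5 the lowest, and from 0.504 to 1.18 in CV and 1.15 to 1.29 in GF testes. Amh over Amhr2 ran from 0.668 to 0.816 in CV and 0.508 to 0.701 in GF ovaries, and from 0.00737 to 0.0108 in all testes. CV and GF ranges overlapped in each of these ratios in both tissues. Within the 4 same-numbered pairs of ovaries, Amh over Amhr2 was lower in GF in all 4 (mean log2 difference -0.23, SD 0.155), and so was Inhba over Inhbb (-0.29, SD 0.303), while the other 3 ratios were mixed. An exact sign-flip permutation test over 4 pairs cannot go below p = 0.125, the value both ratios had.

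**Figure D5:**
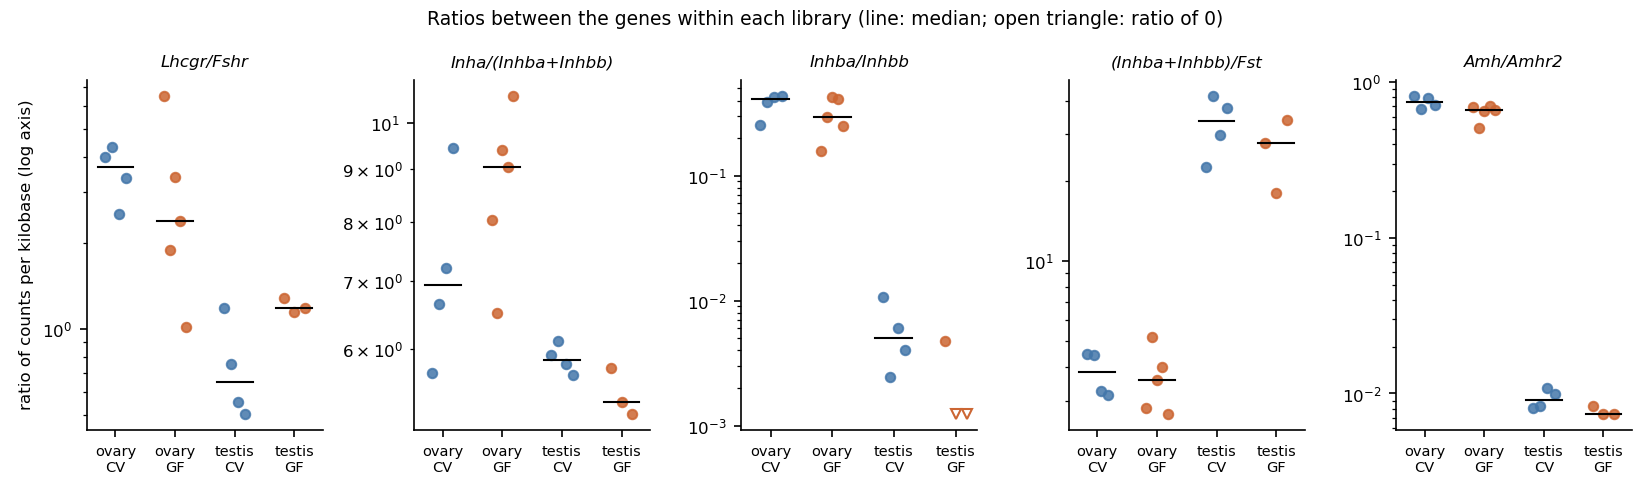
Ratios between the genes in each library, per kilobase of exon on log axes that differ between panels, with the group median as a line and testes with no Inhba count as open triangles. Ovaries and testes separate in Inhba/Inhbb, (Inhba+Inhbb)/Fst and Amh/Amhr2, and CV and GF overlap in each panel.

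The genes around these hormones were taken as 6 lists. Of the gonadotropin subunit and GnRH genes, Cga and Fshb, which are pituitary genes, had 0 to 6 counts over any group. Lhb, at 39.5 to 46 CPM in CV testes, overlaps another gene on the opposite strand, so its level is uncertain. Among 21 genes of cyclic AMP signalling below the gonadotropin receptors, 0 were called in the GF ovary (median 0.04) and 1 in the GF testis, where Crem, a cyclic AMP-responsive regulator of spermatid genes, fell from 323 ± 9.91 to 297 ± 5.42 CPM (log2 -0.10, edgeR adjusted p = 0.0274). The smallest p in the ovary were those of the adenylate cyclase gene Adcy3 (0.26, adjusted p = 0.507) and the phosphodiesterase gene Pde8a (0.20, adjusted p = 0.7). Of 12 gonadotropin target genes 0 of 12 tested were called in the ovary and 0 of 8 in the testis, with medians of -0.01 and 0.05. Those of smallest p were the prostaglandin synthase gene Ptgs2 (-0.54, adjusted p = 0.81) and the progesterone receptor gene Pgr (-0.84, adjusted p = 0.826) in the ovary, and the kinase gene Sgk1 (0.31, adjusted p = 0.0838) and Egr1 (0.35, adjusted p = 0.339) in the testis.

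The activin and inhibin pathway held 11 tested genes in each tissue. In the ovary 0 were called (median 0.04), with the activin receptor genes Acvr2a at -0.20 (adjusted p = 0.744) and Acvr2b at 0.31 (adjusted p = 0.81). In the GF testis 2 were lower and 0 higher (median 0.06): Fstl1, a follistatin-like glycoprotein, fell from 22 ± 2.08 to 18.2 ± 0.733 CPM (log2 -0.26, adjusted p = 0.0232), and Acvr2a, the type 2 receptor that binds activin, fell from 52.9 ± 0.777 to 47.2 ± 0.904 CPM (log2 -0.15, adjusted p = 0.0477). Of the anti-Müllerian hormone and bone morphogenetic protein pathway 0 of 17 were called in the ovary (median 0.00), where the target gene Id1 (-0.30, adjusted p = 0.602) and Smad9 (0.64, adjusted p = 0.667) had the smallest p. In the testis 1 of 15 was called (median -0.07): Smad6, an inhibitor of the pathway, fell from 21.3 ± 0.929 to 17.5 ± 1.44 CPM (log2 -0.26, adjusted p = 0.0158). Among regulators of Amh and inhibin transcription 0 of 14 were called in the ovary (median 0.02) and 0 of 13 in the testis (median -0.04). Their smallest p were those of Nr0b1 (0.35, adjusted p = 0.823) and the oestrogen receptor gene Esr1 (-0.24, adjusted p = 0.846) in the ovary and of Esr2 (-0.76, adjusted p = 0.181) and the testis transcription factor gene Dmrt1 (0.14, adjusted p = 0.196) in the testis. In the interaction 0 of these genes were called, and Smad6 had the smallest p (-0.54, adjusted p = 0.342). Over all genes 3.67% were called higher and 4.41% lower in the GF testis, and all values are from edgeR. The 4 testis calls did not hold in every alternative: of 14 alternatives Acvr2a lost its call in 12 (adjusted p up to 0.718), Fstl1 in 7 (up to 0.766), Crem in 5 (up to 1) and Smad6 in 3 (up to 0.602). Every library left out alone ended the call of Acvr2a. The call of Fstl1 ended without CV3, CV4, GF2 or GF3, that of Crem without CV1, CV2, GF1 or GF2, and that of Smad6 without GF1 or GF2.

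Between the tissues these lists followed the 8 genes in being mostly lower in the CV testis, except that of gonadotropin subunits and GnRH. Of 12 gonadotropin targets 10 were called lower and 1 higher (median -4.44), among them the cyclin gene Ccnd2 (-4.56) and Ptgs2 (-5.87). Of 17 genes of the anti-Müllerian hormone pathway 16 were lower and 1, Smad6, higher (median -2.41), with the receptor genes Bmpr2 at -4.06 and Bmpr1a, a type 1 receptor used by anti-Müllerian hormone, at -2.07. Of 11 activin pathway genes 8 were lower and 2 higher (median -1.63), with the inhibin co-receptor Tgfbr3 at -2.30 and Smad3 at -2.84. Of 21 cyclic AMP genes 14 were lower and 5 higher (median -1.23), such as Gnas, the stimulatory G protein, at -1.74 and Crem at 4.54. Of 15 regulators 11 were lower and 3 higher (median -2.44), with Nr5a1 at -2.15 and Dmrt1 at 9.09. Over all 21231 genes 43.8% were called lower and 47.4% higher in the CV testis, and the median was 0.11. In GF mice the medians were -4.00, -2.71, -1.73, -1.43 and -2.66 in the same order, against 0.04 over all genes. Of the gonadotropin subunit and GnRH list only Lhb, whose level is uncertain, was tested in CV mice, and it was called higher in the testis (2.98). In GF mice 2 genes of that list were tested, 1 called higher and 1 lower.

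Genes within 2 Mb of each member were counted as well. In the ovary 0 genes were called near 7 of the 8, and 2 of 14 near Inhba, against 0.177% of all genes: Ggps1 (-0.62, adjusted p = 0.00506) and 5033411D12Rik (-1.97, adjusted p = 0.00156). In the testis Inhbb had 6 of 17 neighbours called (35.3%), among them Tmem37 at 1.71 and Steap3 at 1.28, while Inhbb itself stood at 0.09. The other 7 had 1 to 7 called neighbours, 4% to 13% of those tested, against 8.08% of all genes. Near Inhba 2 of 16 were called in the testis, both lower in GF: 5033411D12Rik (-1.07, adjusted p = 5.04e-08), as in the ovary, and Tbce (-0.52, adjusted p = 7.84e-08, edgeR).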

How the data were processed

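The authors deposited whole-number read counts per gene, not normalized, for 38087 genes in 16 libraries of total RNA, and every column matched a sample by name. Per the labels' protocols, a stranded kit was used on 250 ng of RNA depleted of ribosomal RNA, with 12 PCR cycles and paired reads of 100 nt. The submitters' processing notes name STAR 2.4.0i and mm10. How reads were counted, with which annotation and whether by strand, is not given in the sources used here.

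Counts were tested with edgeR 4.0.16 (R 4.3.3) by the quasi-likelihood F test (TMM factors, filterByExpr, robust fit), separately for ovary GF against CV, testis GF against CV, testis against ovary in CV and in GF, and for the interaction over all 16 libraries. Benjamini-Hochberg adjustment ran over all genes tested, with a threshold of 0.05. Biological variation between libraries (edgeR's coefficient) came to 18.5% in ovaries and 4.17% in testes. On simulated counts with 200 genes changed 2-fold, the ovary design recovered 71.5%, the testis design 89.5% and the interaction 48.5% of them. Alternatives were DESeq2 1.42.0, limma-voom (limma 3.58.1), other scalings, no filter, a replicate block, a joint fit and leaving out single libraries. Leaving out GF4 and GF5 together was chosen after seeing their marker values, and comparing ratios within same-numbered ovaries after seeing the data.

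CPM came from the counts with TMM factors over all 16 libraries, and log2 CPM used a prior count of 0.5. Exon lengths and positions came from GENCODE M21 (GRCm38, the assembly of mm10), joined by gene identifier, and promoter sequences from RefSeq (GRCm38.p6). Replicate pairs differed by more than sampling noise (chi-square per degree of freedom 2.37 to 34.3 over genes with a pair sum of 20 counts or more), so each library counted once. Same-numbered CV and GF ovaries deviated together (correlations 0.357, 0.249, 0.198 and 0.355 over genes), and by that criterion the numbers were taken as pairs. CV1 and CV4 correlated best with the GF ovary of their own number, but CV2 did so with GF5 and CV3 with GF4. No label gives a pairing, and the correlations cannot tell pairs from variation that ovaries share. Same-numbered testes did not deviate together (-0.0439, 0.00716 and -0.0239).

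The members and lists were chosen with earlier results of these data known. Genes named beside the 8 were up to 4 called per list by smallest p, the 2 of smallest p where none was called, the first markers of each cell type and the 2 nearest profiles of each member. Other markers, and the neighbours given as examples, were named after their values were seen. A gene that this rule would name is not reported here.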

Additional observations from a re-analysis of the deposited data

Results flagged for a closer look

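Amh over Amhr2 in the GF2 ovary, at 0.508 per kilobase, lay apart from the other 4 GF ovaries, which ran from 0.651 to 0.701. The gap to the nearest library was 0.739 of the range of the group, above Dixon's critical value of 0.71 for 5 samples. Of 39 checks of a gene or ratio in a group of 4 or 5 libraries this was the 1 past its critical value, and chance gives about 1 in 20 groups. GF2 also had the lowest Amh of the 9 ovaries, at 17.2 CPM.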

How the results depend on the processing

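Of the 5 counts of called members, those of the ovary (0), the interaction (0) and both tissue contrasts (8) were the same under every alternative run. The testis count rose from 0 to 1, which was Lhcgr, with no filter on low counts and without CV1, and was 0 in the other alternatives run. With replicate number as a block the ovary call count stayed at 0 of 8, while Amh turned to -0.0702 and Inha to 0.0416 in the ovary and Fshr to -0.0125 in the interaction. With GF4 and GF5 both left out Amh in the ovary was -0.254. With single libraries left out the sign changed for Amh in the ovary (-0.103 to 0.185), Inha in the ovary (-0.196 to 0.104), Fshr in the interaction (-0.0884 to 0.227) and Inha in the interaction (-0.155 to 0.143), all with SEs larger than the values. The cause was not tested. Of the other genes named, the 2 ovary calls near Inhba and the 2 testis calls near Inhbb held in each alternative. The 2 testis calls near Inhba were not followed through the alternatives. The 26 remaining values kept their sign and their side of the threshold, while those of Crem, Fstl1, Acvr2a and Smad6 in the testis kept their sign. The 9 differences of mean log2 ratio between GF and CV moved by less than 1 SD of replicates under each alternative, the pairing of same-numbered ovaries included. Over all genes, DESeq2 called 95 and the joint fit 93 in the ovary against 32, the joint fit called 122 in the testis against 1638, and DESeq2 called 118 in the interaction against 29. Leaving out the GF2 testis gave 996 calls in the testis, and leaving out any 1 of the 7 testes gave 13 to 19 in the interaction. Same-numbered testes did not deviate together, and with the block 1692 genes were called, and 0 of 7 members. Depth limits Inhba, Fst, Amh and Fshr in the testis, which rest on 0 to 68 counts a library.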
